A study of Mus musculus with 6 samples.

Results

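The TNF superfamily and its receptors were followed in group 2 innate lymphoid cells (ILC2), the innate lymphocytes that make type 2 cytokines. Members were taken by symbol. They are every gene whose symbol starts with Tnfrsf or Tnfsf, together with Tnf, Lta, Ltb, Ltbr, Fas, Fasl, Cd40, Cd40lg, Cd27 and Cd70, where any read was counted in the 6 libraries. This gave 40 members of 23871 genes with any count, 17 on the ligand side and 23 receptors. Cd70 and Tnfrsf17 fall under the rule but had 0 counts in every library, and Tnfsf12 was not analysed here. The filter on low counts kept 35 members, namely 12 on the ligand side and all 23 receptors.

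Messenger RNA was sequenced from ILC2 that had been sorted for Thy1 and for ST2, the receptor of IL-33, and for lack of lineage markers. All mice were homozygous for an Id1 transgene under the proximal promoter of lck, which is active in early T cells, made on FVB/N and backcrossed to C57BL/J. The 3 groups, of 2 libraries each, were cells cultured after sorting from mesenteric lymph nodes (cultured MLN), cells taken directly from the thymus, and cells taken directly from mesenteric lymph nodes (fresh MLN). Culture was with 10 ng/ml of each of the cytokines IL-33, IL-25 and IL-7 over 1 week, and about 300000 cells went into each sample. Every group carries the transgene, which blocks the development of T cells in these mice, so no wild-type level is available in these libraries. Whether a group's libraries stem from separate animals or cultures is not stated, and the p-values therefore cover the spread among these libraries alone, which may be technical.

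TNF family ligands are mostly made as trimers anchored in the cell membrane, and some are shed by proteases. Their receptors cluster on binding and recruit TRAF adaptors, which lead to NF-kB and MAP kinase signalling, or, where they carry a death domain, adaptors that can start caspase-dependent death. Several members act as costimulatory receptors of lymphocytes, and in mice the receptors DR3 (Tnfrsf25) and GITR (Tnfrsf18) are known as costimulators of ILC2.

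The libraries held between 35280692 and 40578264 counts. Levels are given as CPM, the counts of a gene scaled to equal library totals, with TMM factors, and 3 counts in 1 library equal 0.0739 to 0.0905 CPM. All 12 ILC2 and sort markers were detected in every group. Their summed levels were 15300 to 15600 CPM in cultured MLN, 8720 to 8880 CPM in thymus and 11000 CPM in each fresh MLN library. After culture 6 of the 12 were higher than in fresh MLN and 6 lower, so the larger sum does not mean that most of them rose. Marker lists of other cell types also differed between groups. The 10 macrophage markers summed to 25.7 to 27.9 CPM in cultured MLN, 9.9 to 13.9 CPM in thymus, where Cd14 was at 0, and 89.5 to 93.7 CPM in fresh MLN. Cybb made up 72.2 and 66.8 CPM of the sum in fresh MLN. After culture 3 of these 10 markers were higher than in fresh MLN, 5 lower and 2 not tested. The 10 dendritic cell markers summed to 99.6 to 106 CPM in cultured MLN, where Clec9a, Batf3 and Ccl22 were at 0, 17.3 to 19.9 CPM in thymus, where Siglech was at 0, and 44.3 to 49.7 CPM in fresh MLN. H2-Ab1 and Xcr1 made up most of it in cultured MLN, where they had 55.3 to 66.2 and 33.4 to 38.8 CPM, and 6 of the 8 markers tested were lower after culture than in fresh MLN. The 10 B cell markers summed to 71.1 to 80.7 CPM in cultured MLN, where Ms4a1 was among those at 0, 61.0 to 62.5 CPM in thymus and 146 to 185 CPM in fresh MLN, where Pax5 and Ebf1 were at 0. The 10 T cell markers summed to 191 to 203 CPM in cultured MLN, 477 to 506 CPM in thymus and 482 to 496 CPM in fresh MLN. Despite the similar sums of the organs, 4 of these markers were called higher in thymus than in fresh MLN, 2 lower and 4 not called. The 12 stromal markers summed to 168 to 170 CPM in cultured MLN, where Foxn1, Col3a1 and Cdh5 were at 0, 190 to 197 CPM in thymus, and 148 to 156 CPM in fresh MLN, where Foxn1, Psmb11, Krt5 and Krt8 were at 0. Pecam1 made up most of this sum, with 152 to 155 CPM in cultured MLN, 131 to 140 CPM in thymus and 99.5 to 110 CPM in fresh MLN. Pdgfrb had 6.70 to 10.1, 54.1 to 55.3 and 43.7 to 46.5 CPM in these groups. Too few counts left 7 of the 12 stromal markers untested. The part of other cell types in the results was not tested. In these bulk libraries, fewer cells of a type and less RNA per cell cannot be told apart.

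A gene was called when its adjusted p was under 0.05 (edgeR quasi-likelihood test, two-sided, with Benjamini-Hochberg adjustment over 16231 genes in each comparison). After culture nearly every tested member differed from fresh MLN: 17 were higher, 16 lower and 2 not called, Cd40 and Tnfsf4. Called members made up 94.3% of the 35, against 77.6% of all genes tested. Over all genes 39.4% were higher and 38.1% lower. In 33 members no library of 1 group overlapped those of the other, against 89.2% of all genes. The median absolute log2 fold change was 2.90 over the tested members and 0.87 over all genes. A member that passed the filter through 1 group alone, as Tnfrsf11b did, had to differ there, so these counts and medians describe the tested members and do not stand for all 40. By side, 13 of 23 receptors were higher, 9 lower and 1 not called, with a median log2 fold change of 1.16. Of 12 tested genes on the ligand side, 4 were higher, 7 lower and 1 not called, with a median of -2.06.

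The largest differences were in a pair of costimulatory receptors that were barely detected or low before culture. Tnfrsf8 (ENSMUSG00000028602, chromosome 4), which encodes CD30, a receptor of activated lymphocytes, had 1230 and 1250 CPM in cultured MLN, 0.370 and 0.532 CPM in thymus, and 0.591 and 0.292 CPM in fresh MLN. Both cultured libraries stood far above the other 4, where Tnfrsf8 had 11 to 23 counts, and thymus and fresh MLN overlapped. It was 2780-fold higher in cultured MLN than in fresh MLN, with a log2 fold change of 11.44 ± 0.15 (SE, adjusted p = 7.7e-15). Without fresh MLN replicate 1 this log2 fold change was 12.04. Tnfrsf9 (ENSMUSG00000028965, chromosome 4), which encodes CD137, a costimulator of T and NK cells, had 2830 and 2920 CPM in cultured MLN, 5.72 and 4.79 CPM in thymus, and 8.86 and 7.01 CPM in fresh MLN. All 3 groups were apart, with thymus lowest. The gene was 362-fold higher in cultured MLN than in fresh MLN (log2 fold change 8.50 ± 0.13, adjusted p = 1.4e-14). It ranked 22 and 21 by count among all genes in the cultured libraries, 10082 and 10340 in thymus, and 9223 and 9567 in fresh MLN.

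Other receptors without a death domain were also higher after culture. Tnfrsf12a, which encodes Fn14, the receptor of TWEAK, had 19.5 and 16.1 CPM in cultured MLN, 1.70 and 1.83 CPM in thymus, and 1.52 and 2.04 CPM in fresh MLN, and was 9.99-fold higher in cultured than in fresh MLN (3.32 ± 0.18, adjusted p = 1.6e-09). Tnfrsf1b, which encodes TNFR2, the TNF receptor common on lymphocytes, had 479 and 476 CPM in cultured MLN, 111 and 109 CPM in thymus, and 148 and 133 CPM in fresh MLN, and was 3.40-fold higher after culture (1.76 ± 0.07, adjusted p = 7.4e-11). Tnfrsf18, which encodes GITR, had 277 and 271 CPM in cultured MLN, 140 and 161 CPM in thymus, and 122 and 124 CPM in fresh MLN, and was 2.23-fold higher (1.16 ± 0.08, adjusted p = 9.4e-09). For these genes the cultured libraries lay above the other 4 without overlap. Tnfrsf18 overlaps the antisense gene Gm16008 and the strand setting of the counting is not given, so its reads may include that gene's. Ltbr, the lymphotoxin beta receptor, had 8.11 and 7.03 CPM in cultured MLN, 1.97 and 1.54 CPM in thymus, and 2.16 and 1.88 CPM in fresh MLN, and was 3.74-fold higher after culture (1.90 ± 0.19, adjusted p = 9.8e-07). Thymus and fresh MLN overlapped for Ltbr and for Tnfrsf12a.

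A second set of receptors was lower after culture. Cd27 (ENSMUSG00000030336, chromosome 6), a costimulatory receptor of lymphocytes that binds CD70, had 7.63 and 6.70 CPM in cultured MLN, 192 and 202 CPM in thymus, and 216 and 215 CPM in fresh MLN, and was 30.1-fold lower in cultured than in fresh MLN (-4.91 ± 0.09, adjusted p = 4.6e-14). It was high in all 4 libraries taken directly from the organs, and ranked 9780 and 9991 by count in cultured MLN, 1081 and 1017 in thymus, and 957 and 988 in fresh MLN. Tnfrsf19, which encodes TROY, had 0.121 and 0.248 CPM in cultured MLN, 6.78 and 8.29 CPM in thymus, and 3.44 and 6.69 CPM in fresh MLN, and was 26.6-fold lower after culture (-4.73 ± 0.44, adjusted p = 3.6e-07). The cultured value rests on few reads in each library, and without cultured MLN replicate 2 the log2 fold change was -5.34. Tnfrsf14, which encodes HVEM, the receptor of LIGHT, had 11.9 and 12.3 CPM in cultured MLN, 25.0 and 19.4 CPM in thymus, and 43.1 and 42.8 CPM in fresh MLN (-1.83 ± 0.11, adjusted p = 5.2e-09). Tnfrsf11a, which encodes RANK, had 10.8 and 11.7 CPM in cultured MLN, 24.8 and 24.7 CPM in thymus, and 23.5 and 28.1 CPM in fresh MLN (-1.19 ± 0.11, adjusted p = 2.2e-07). Cultured MLN was the lowest group for each of these 4 receptors, and for Tnfrsf11a thymus and fresh MLN overlapped. Tnfrsf4, which encodes OX40, and Tnfrsf26 changed less, with log2 fold changes of -0.69 ± 0.14 and -0.66 ± 0.07. Tnfrsf4 had 5.58 to 6.09 CPM in cultured MLN, 6.38 to 6.43 CPM in thymus and 9.20 to 9.66 CPM in fresh MLN.

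The 2 receptors of the B cell survival factors BAFF and APRIL that had counts were both higher after culture than in fresh MLN. Tnfrsf13b, which encodes TACI, had 14.4 and 13.3 CPM in cultured MLN, 24.0 and 24.0 CPM in thymus, and 7.84 and 6.21 CPM in fresh MLN (0.98 ± 0.12, adjusted p = 7.3e-06). Its highest group was thymus, where B cell markers were lowest and summed to 61.0 to 62.5 CPM. Tnfrsf13c, which encodes the BAFF receptor, was low throughout, with 1.45 and 1.13 CPM in cultured MLN, 0.591 and 0.585 CPM in thymus, and 0.231 and 0.106 CPM in fresh MLN (2.90 ± 0.44, adjusted p = 4.7e-05). Without fresh MLN replicate 1 the log2 fold change of Tnfrsf13c was 3.56. Cd40, the receptor by which T cells help B cells and dendritic cells, had 0.271 and 0.524 CPM in cultured MLN, 0.271 and 0.133 CPM in thymus, and 0.539 and 0.504 CPM in fresh MLN, and was not called after culture (adjusted p = 0.48).

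The 5 receptors with a death domain split. Fas (ENSMUSG00000024778, chromosome 19), which starts death on binding Fas ligand, had 36.7 and 32.7 CPM in cultured MLN, 1.31 and 1.20 CPM in thymus, and 2.47 and 2.36 CPM in fresh MLN, and was 14.3-fold higher in cultured than in fresh MLN (3.84 ± 0.13, adjusted p = 1.1e-11). Tnfrsf21, which encodes DR6, had 13.4 and 15.4 CPM in cultured MLN, 9.73 and 8.08 CPM in thymus, and 1.75 and 1.27 CPM in fresh MLN (3.25 ± 0.18, adjusted p = 2.5e-09). Tnfrsf10b, the TRAIL receptor of the mouse, had 30.9 and 29.7 CPM in cultured MLN, 10.2 and 9.54 CPM in thymus, and 8.07 and 8.44 CPM in fresh MLN (1.88 ± 0.10, adjusted p = 1.1e-09). These 3 were highest in cultured MLN. Tnfrsf25, which encodes DR3, the receptor of TL1A, moved the other way, with 41.4 and 29.3 CPM in cultured MLN, 219 and 241 CPM in thymus, and 244 and 251 CPM in fresh MLN, a 7.01-fold lower level after culture than in fresh MLN (-2.81 ± 0.12, adjusted p = 1.8e-10). Tnfrsf1a, which encodes TNFR1, the widely expressed TNF receptor, had 1.12 and 1.71 CPM in cultured MLN, 7.39 and 7.58 CPM in thymus, and 2.95 and 3.45 CPM in fresh MLN (-1.17 ± 0.23, adjusted p = 3.8e-04). The 2 TNF receptors thus differed in opposite directions after culture, Tnfrsf1b up and Tnfrsf1a down.

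Among soluble and decoy receptors, Tnfrsf11b, which encodes osteoprotegerin, the soluble trap of RANKL, had 78 and 68 counts in cultured MLN, 0 and 0 in thymus, and 1 and 0 in fresh MLN. The counts in cultured MLN were 161 times those in fresh MLN relative to library size, with a 95% counting interval of 28.5 to 6400 (adjusted p = 8.9e-07), and at least 54.8-fold above thymus, with 3 counts over that group as the floor. Its fitted log2 fold change against fresh MLN ran from 6.18 without fresh MLN replicate 2 to 9.29 without fresh MLN replicate 1. In CPM it reached 2.35 and 1.87 in cultured MLN. The mouse TRAIL decoy receptors Tnfrsf22 and Tnfrsf23 went apart. Tnfrsf22 had 7.96 and 7.58 CPM in cultured MLN, 21.6 and 18.9 CPM in thymus, and 27.2 and 25.3 CPM in fresh MLN (-1.76 ± 0.11, adjusted p = 4.3e-09). Tnfrsf23 had 26.6 and 24.7 CPM in cultured MLN, 13.8 and 11.6 CPM in thymus, and 7.66 and 6.82 CPM in fresh MLN (1.82 ± 0.12, adjusted p = 9.3e-09). The order of the 3 groups was reversed between these 2 genes, and no groups overlapped in either.

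**Figure D1:**
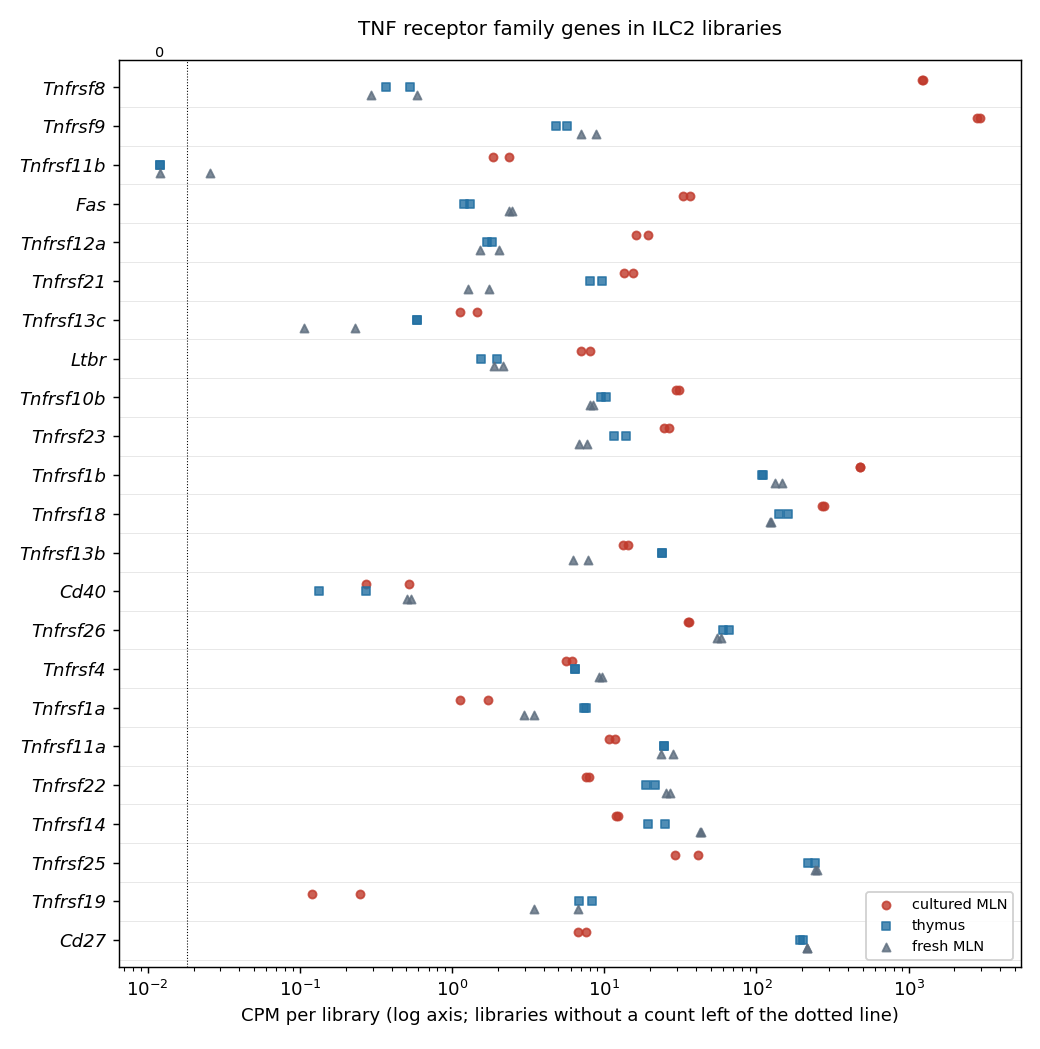
Levels of the 23 receptors in each library, in CPM on a log axis, with cultured MLN, thymus and fresh MLN libraries as points; a library with 0 counts is drawn left of the dotted line. Tnfrsf8 and Tnfrsf9 lie above 1000 CPM in both cultured libraries and under 10 CPM in the other 4, while Cd27 and Tnfrsf25 are lower in the cultured libraries than in the others.

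On the ligand side, both lymphotoxin transcripts were lower after culture. Ltb (ENSMUSG00000024399, chromosome 17), the membrane anchor of the lymphotoxin heterotrimer, had 6.61 and 8.63 CPM in cultured MLN, 360 and 394 CPM in thymus, and 635 and 624 CPM in fresh MLN, and was 82.3-fold lower in cultured than in fresh MLN (-6.36 ± 0.12, adjusted p = 5.6e-14). By count it ranked 10029 and 9564 in cultured MLN, 398 and 335 in thymus, and 141 and 145 in fresh MLN. Lta, its partner subunit, had 0.392 and 0.909 CPM in cultured MLN, 16.5 and 17.8 CPM in thymus, and 11.8 and 8.97 CPM in fresh MLN (-3.97 ± 0.26, adjusted p = 8.7e-09, and -4.71 without cultured MLN replicate 2). Tnf had 1.36 and 1.65 CPM in cultured MLN, 7.07 and 7.92 CPM in thymus, and 2.00 and 2.34 CPM in fresh MLN. Its log2 fold change after culture was -0.52 ± 0.22 with adjusted p = 0.044, a call lost in 7 of 15 alternative settings (adjusted p 0.05 to 0.2). For all 3 genes the cultured libraries were the lowest. The 7 markers of ILC3 and lymphoid tissue inducer cells, which make lymphotoxin, summed to 4.52 to 5.28 CPM in cultured MLN, 65.3 to 69.8 CPM in thymus and 121 to 132 CPM in fresh MLN, with Il17a at 0 in all 3 groups. Most of that sum was Nrp1, at 4.13 to 4.92 CPM in cultured MLN, 51.4 to 55.7 CPM in thymus and 115 to 126 CPM in fresh MLN. After culture 5 of the 5 markers tested were lower than in fresh MLN, and 4 of them were higher in thymus than in fresh MLN. The part of such cells in the Ltb difference was not tested.

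Further ligands were lower after culture. Tnfsf11, which encodes RANKL, an inducer of osteoclasts and of lymph nodes, had 2.74 and 3.11 CPM in cultured MLN, 49.0 and 48.9 CPM in thymus, and 60.5 and 48.2 CPM in fresh MLN, and was 18.5-fold lower in cultured than in fresh MLN (-4.21 ± 0.13, adjusted p = 5.8e-12). Tnfsf14, which encodes LIGHT, a ligand of HVEM and of the lymphotoxin beta receptor, had 8.48 and 9.34 CPM in cultured MLN, 71.9 and 86.0 CPM in thymus, and 113 and 103 CPM in fresh MLN, and was 12.1-fold lower (-3.60 ± 0.11, adjusted p = 3.2e-12). In both genes the 2 cultured libraries were far below the other 4. Tnfsf18, which encodes the ligand of GITR, had 2 and 1 counts in cultured MLN, 76 and 47 in thymus, and 243 and 192 in fresh MLN. Relative to library size, counts in cultured MLN were 131 times lower than in fresh MLN, with a 95% counting interval of 44.7 to 640 (adjusted p = 6.6e-09), and the fitted log2 fold change of -6.93 became -7.52 without cultured MLN replicate 1. Fasl, the death ligand of cytotoxic cells, had 0 and 6 counts in cultured MLN, 187 and 211 in thymus, and 329 and 268 in fresh MLN. Its 86.9-fold lower level in cultured than in fresh MLN (-6.44 ± 0.42, adjusted p = 9.6e-09) rests on 1 cultured library with reads: the log2 fold change was -5.52 without cultured MLN replicate 1, and leaving out cultured MLN replicate 2 made it -11.19. The 8 NK cell and ILC1 markers summed to 53.0 to 61.6 CPM in cultured MLN, where Klrb1c and Klra8 were at 0, 19.8 to 22.9 CPM in thymus and 52.1 to 58.1 CPM in fresh MLN. Prf1 carried this sum in cultured MLN, with 52.8 and 61.3 CPM there and 17.8 and 15.3 CPM in fresh MLN. The other 7 markers were lower after culture, among them Klrk1 at 0 and 0.0276 CPM in cultured MLN, against 11.7 and 17.9 CPM in fresh MLN, and Ncr1 at 0 and 0.0827 CPM, against 6.63 and 7.25 CPM. The part of such cells in the Fasl difference was not tested.

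The genes on the ligand side that were higher after culture include the ligands of the receptors that were highest there. Tnfsf9, which encodes the ligand of CD137, had 40.7 and 41.9 CPM in cultured MLN, 2.44 and 3.16 CPM in thymus, and 1.72 and 1.83 CPM in fresh MLN, and was 23.2-fold higher in cultured than in fresh MLN (4.54 ± 0.14, adjusted p = 3.9e-12). Tnfsf9 overlaps Gm11110 on the opposite strand, whose reads cannot be told apart without the strand setting. Tnfsf8, which encodes the ligand of CD30, had 13.2 and 9.54 CPM in cultured MLN, 3.35 and 3.24 CPM in thymus, and 1.05 and 0.584 CPM in fresh MLN, and was 13.8-fold higher (3.79 ± 0.25, adjusted p = 1.3e-08). Tnfsf10, which encodes TRAIL, had 269 and 243 CPM in cultured MLN, 92.1 and 86.8 CPM in thymus, and 165 and 143 CPM in fresh MLN (0.73 ± 0.08, adjusted p = 2.1e-06). No groups overlapped in these 3 ligands, and fresh MLN was lowest for Tnfsf8 and Tnfsf9 while thymus was lowest for Tnfsf10. The readthrough gene Tnfsfm13 had 10.0 and 10.9 CPM in cultured MLN, 0.443 and 0.372 CPM in thymus, and 0.462 and 0.531 CPM in fresh MLN (4.39 ± 0.22, adjusted p = 6.6e-10). Tnfsfm13 overlaps Tnfsf13, which encodes APRIL, on the same strand and Tnfsf13os on the opposite strand. Tnfsf12, which lies beside Tnfsf13 in the genome, was not analysed here, so its overlap with Tnfsfm13 was not examined. Which of these genes the reads of Tnfsfm13 belong to is therefore uncertain.

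Tnfsf4, which encodes the ligand of OX40, was low throughout, with 0.332 and 0.413 CPM in cultured MLN, 1.16 and 0.798 CPM in thymus, and 0.539 and 0.345 CPM in fresh MLN, and was not called after culture (adjusted p = 0.64). The 5 members under the filter, all on the ligand side, had at most 12 counts in any library. Tnfsf13 had 12 and 4 counts in cultured MLN, 1 and 2 in thymus, and 2 and 6 in fresh MLN. Tnfsf13os had 8 and 12 counts in cultured MLN, 4 and 1 in thymus, and 2 and 7 in fresh MLN. Tnfsf13b, which encodes BAFF, had 6 and 2 counts in cultured MLN, 4 and 1 in thymus, and 0 and 7 in fresh MLN. Cd40lg and Tnfsf15, which encode CD40 ligand and TL1A, had at most 3 counts in any library. The ligands of DR3 and CD40 were thus at or under the floor in all 3 groups at this depth, which does not show that they are absent.

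**Figure D2:**
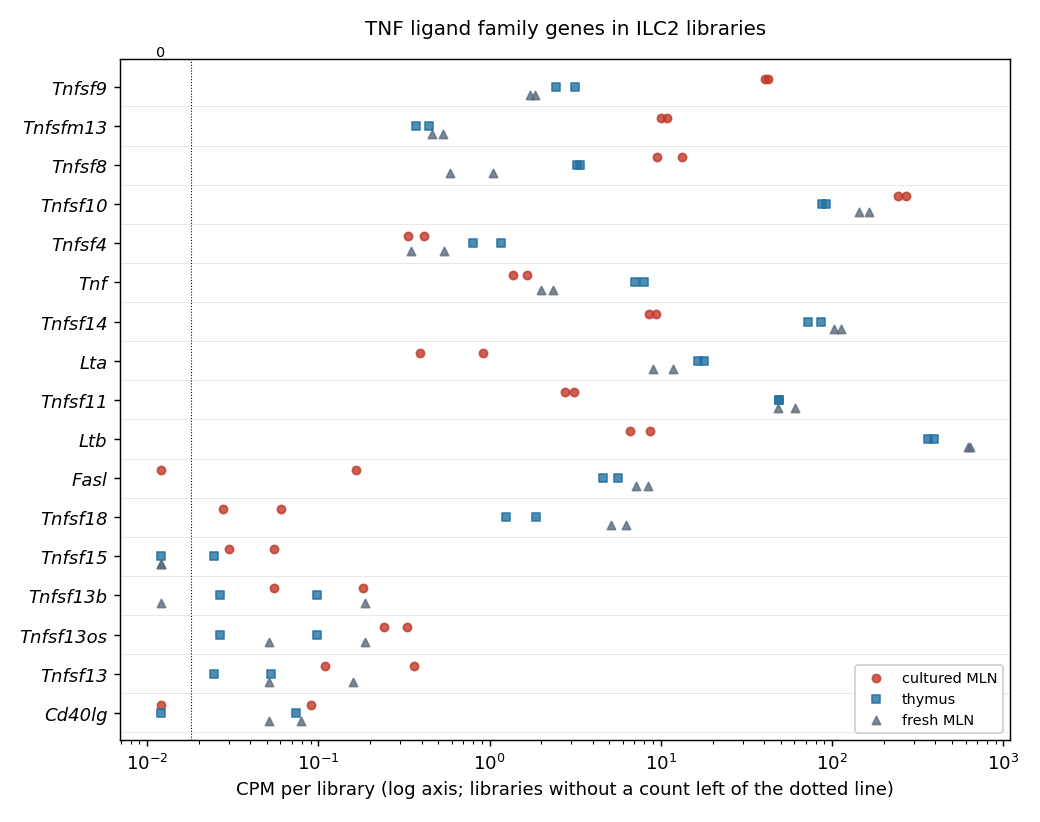
Levels of the 17 members on the ligand side in each library, in CPM on a log axis, with cultured MLN, thymus and fresh MLN libraries as points; a library with 0 counts is drawn left of the dotted line. Ltb lies at 624 to 635 CPM in fresh MLN and under 10 CPM in cultured MLN, and Tnfsf9 lies above 40 CPM in cultured MLN and under 4 CPM elsewhere.

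Between the organs the differences were smaller. In thymus relative to fresh MLN, 11 members were higher, 12 lower and 12 not called. Called members made up 65.7% of the 35 tested, against 47.3% of all genes, of which 25.3% were higher and 22.0% lower. The libraries did not overlap in 29 members, against 72.8% of all genes. The median absolute log2 fold change was 0.61 over the tested members and 0.34 over all genes, and 9 called members differed by 2-fold or more. Of the receptors 6 were higher, 7 lower and 10 not called, with a median log2 fold change of -0.06. On the ligand side 5 were higher, 5 lower and 2 not called, with a median of -0.22.

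The members higher in thymus by 2-fold or more were led by receptors and ligands of different roles. Tnfrsf21 was 5.88-fold higher in thymus than in fresh MLN (2.56 ± 0.19, adjusted p = 1.8e-07). Tnfsf8 was higher by 2.00 ± 0.28 on the log2 scale (adjusted p = 6.5e-05). Tnf was 3.45-fold higher (1.79 ± 0.19, adjusted p = 4.9e-06), Tnfrsf13b 3.41-fold (1.77 ± 0.12, adjusted p = 7.5e-08) and Tnfrsf1a 2.34-fold (1.22 ± 0.19, adjusted p = 1.8e-04). Tnf and its receptor TNFR1 were thus both highest in thymus among the 3 groups. Tnfrsf13c and Tnfsf4, at or under about 1 CPM, were also called higher (1.77 ± 0.48 and 1.14 ± 0.39), and neither call held in every setting: Tnfrsf13c lost its call without fresh MLN replicate 2 (adjusted p = 0.084) and reached 2.44 without fresh MLN replicate 1, and Tnfsf4 lost its call in 3 of the 14 settings that tested it (adjusted p 0.13 to 0.23). Smaller differences were found for Tnfrsf23 (0.82 ± 0.12), Lta (0.72 ± 0.17), Tnfsf9 (0.65 ± 0.17) and Tnfrsf18 (0.30 ± 0.07). Tnfsf9 lost its call without thymus replicate 2 (adjusted p = 0.069).

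Among the members lower in thymus, Tnfsf18 stood lowest, 3.61-fold below fresh MLN (-1.85 ± 0.24, adjusted p = 3.1e-05). Cd40 came next, 2.53-fold lower (-1.34 ± 0.52), at 0.271 and 0.133 CPM in thymus and 0.539 and 0.504 CPM in fresh MLN. Tnfrsf14 and Fas were each 1.93-fold lower (adjusted p = 9e-06 and 7.5e-04), Tnfsf10 was 1.72-fold lower (-0.78 ± 0.08, adjusted p = 5.6e-06) and Ltb was 1.67-fold lower (-0.74 ± 0.09, adjusted p = 1.6e-05). Lta and Ltb, the 2 subunits of 1 heterotrimer, therefore differed in opposite directions between the organs. Tnfrsf9 (-0.59 ± 0.13), Tnfrsf4 (-0.56 ± 0.13), Tnfsf14 (-0.46 ± 0.09), Tnfrsf22 (-0.38 ± 0.10) and Tnfrsf1b (-0.35 ± 0.07) were lower by 1.28-fold to 1.51-fold. Tnfrsf22 lost its call without thymus replicate 2 (adjusted p = 0.067). Fasl was lower by 1.53-fold, and its call was lost without thymus replicate 1 and without fresh MLN replicate 1 (adjusted p = 0.18 in each). Cd40 was called at adjusted p = 0.049 and lost the call in 10 of the 14 settings that tested it (adjusted p 0.052 to 0.3). The summed macrophage markers were lower in thymus as well, at 9.9 to 13.9 CPM against 89.5 to 93.7 CPM in fresh MLN. Cybb made up 72.2 and 66.8 CPM of the sum in fresh MLN. Of this list 3 markers were called lower in thymus, 0 higher and 5 not called. The dendritic cell markers summed to 17.3 to 19.9 CPM in thymus and 44.3 to 49.7 CPM in fresh MLN. Of these 6 were called lower in thymus, 1 higher and 1 not called. The part of either cell type in the lower Cd40 and Tnfsf18 was not tested.

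The members not called between the organs include abundant ones. The log2 fold change of Cd27 was -0.13 ± 0.07 (adjusted p = 0.13), that of Tnfrsf25 -0.10 ± 0.11 (adjusted p = 0.48), that of Tnfsf11 -0.15 ± 0.10 (adjusted p = 0.22) and that of Tnfrsf26 0.16 ± 0.07 (adjusted p = 0.093). After culture Cd27, Tnfrsf25 and Tnfsf11 were lower than in fresh MLN by 30.1-fold, 7.01-fold and 18.5-fold. Tnfrsf19 was not called (0.57 ± 0.25, adjusted p = 0.081) but was called in 3 of 15 alternative settings, which are no filter on low counts (0.58, adjusted p = 0.0026), a replicate block (0.62, adjusted p = 0.0091) and without fresh MLN replicate 2 (1.12, adjusted p = 0.0021), and Tnfsf11 was likewise called without that library (-0.31, adjusted p = 0.02).

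**Figure D3:**
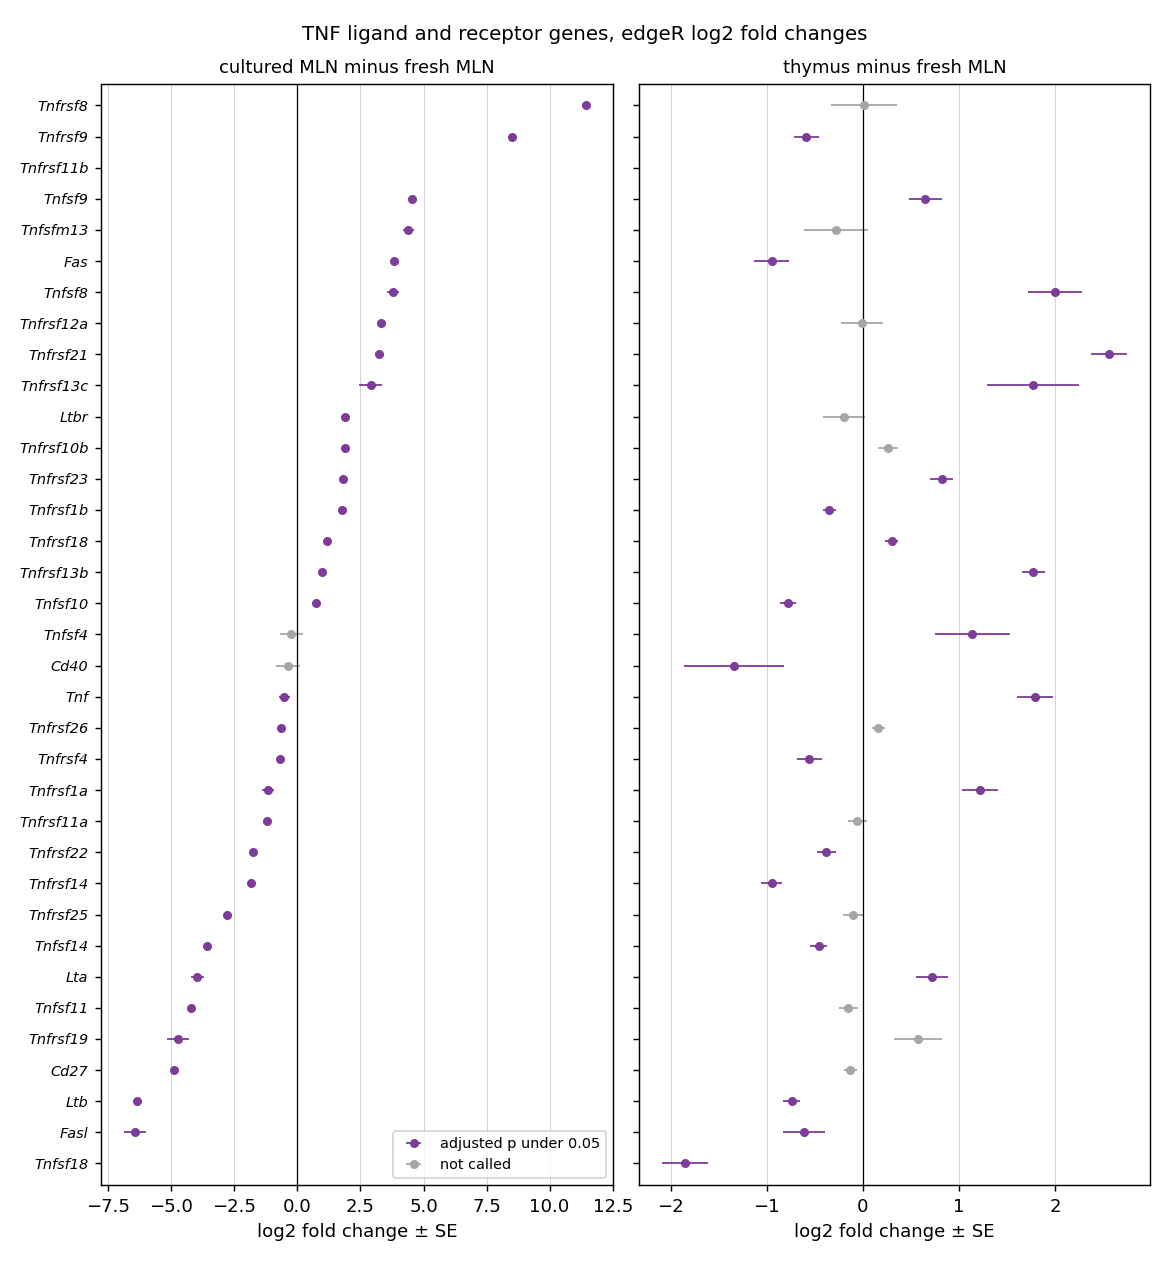
Log2 fold changes of the tested members with their standard errors, for cultured MLN against fresh MLN and thymus against fresh MLN, with members whose lower group has at most 3 counts left out. After culture values run from below -6 to above 11, whereas between the organs all plotted values lie between -2 and 3.

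Set directly against thymus, cultured MLN had 16 members higher, 17 lower and 2 not called, Cd40 and Tnfrsf4, or 94.3% called against 72.7% of all genes tested. Over all genes the shares were 34.8% higher and 37.8% lower. The libraries of the 2 groups did not overlap in any of the 35 tested members, against 86.0% of all genes, although for Cd40 the nearest libraries both stood at 0.271 CPM. This comparison shares its libraries with the other 2. Tnfrsf8 was 2750-fold and Tnfrsf9 546-fold higher in cultured MLN than in thymus (adjusted p = 8.9e-15 and 1.6e-14). Fas was 27.6-fold higher (4.79 ± 0.14, adjusted p = 4.5e-12). Ltb was 49.3-fold lower (-5.62 ± 0.11, adjusted p = 1.7e-13), Cd27 27.6-fold lower (-4.78 ± 0.09, adjusted p = 5.9e-14) and Tnf 4.96-fold lower (-2.31 ± 0.20, adjusted p = 2.1e-07). Tnfrsf13b is the member that was higher than fresh MLN in both cultured MLN and thymus yet lower in cultured MLN than in thymus (-0.79 ± 0.11, adjusted p = 2.9e-05). Tnfrsf13c (1.12 ± 0.36) lost its call in 3 of the 14 alternative settings that tested it (adjusted p 0.06 to 0.12), and Tnfsf4 (-1.38 ± 0.41) in 2 of 14 (adjusted p 0.065 to 0.1).

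Levels of different genes were compared per kilobase of exon, with exon lengths of a later annotation than that used for counting. On the ligand side the summed level was 103 and 101 CPM per kb in cultured MLN, 339 and 370 in thymus, and 558 and 532 in fresh MLN. Tnfsf10 made up 49.8% and 45.9% of it in cultured MLN, followed by Tnfsf9 with 30.7% and 32.3%. Ltb made up 70.0% and 70.2% in thymus, and 75.1% and 77.3% in fresh MLN, followed in both by Tnfsf14. The leading ligand thus differed between cultured MLN and the organs, while thymus and fresh MLN shared the first 2. For receptors the sum was 1810 and 1830 CPM per kb in cultured MLN, 375 and 398 in thymus, and 398 and 399 in fresh MLN. Tnfrsf9 made up 57.6% and 58.6% in cultured MLN, followed by Tnfrsf8 with 19.7% and 19.8%. In thymus and fresh MLN, Tnfrsf25, Tnfrsf18 and Cd27 were the first 3, each with 20.1% to 27.6%.

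Of the known ligand-receptor pairs, 20 whose genes both had counts were listed. The list is not complete, as it leaves out Tnfsf10 with its decoy receptors Tnfrsf22 and Tnfrsf23. The counts of pairs that follow hold for the listed pairs alone. With at least 1 CPM per kb taken as present, both sides were present in 7 pairs in cultured MLN, 8 in thymus and 10 in fresh MLN. The pairs of CD137 and of CD30 showed the contrast most. Tnfsf9 and Tnfrsf9 averaged 32.0 and 1060 CPM per kb in cultured MLN, 2.17 and 1.93 in thymus, and 1.38 and 2.92 in fresh MLN. Tnfsf8 and Tnfrsf8 averaged 2.99 and 359 CPM per kb in cultured MLN, 0.866 and 0.130 in thymus, and 0.215 and 0.128 in fresh MLN, so that this pair was present in cultured MLN alone. Ltb and Ltbr also both reached the minimum in cultured MLN alone, at 5.02 and 3.22 CPM per kb. Ltbr was at 0.746 in thymus and 0.859 in fresh MLN, where Ltb was at 249 and 415. Lta, the partner subunit of Ltb, was under the minimum in cultured MLN, at 0.471 CPM per kb. Tnfsf14 and Ltbr likewise both passed in cultured MLN alone. Fasl and Fas averaged 0.0427 and 16.8 CPM per kb in cultured MLN, 2.64 and 0.607 in thymus, and 4.02 and 1.17 in fresh MLN, where alone both passed. After culture 7 of the 20 pairs had both sides called in the same direction, 7 in opposite directions, and 6 lacked a call on at least 1 side. Same-direction pairs were Tnfsf8 with Tnfrsf8, Tnfsf9 with Tnfrsf9, Tnfsf10 with Tnfrsf10b, Tnfsf11 with Tnfrsf11a, Tnfsf14 with Tnfrsf14, and Tnf and Lta with Tnfrsf1a. Opposite pairs were Fasl with Fas, Ltb and Tnfsf14 with Ltbr, Tnfsf18 with Tnfrsf18, Tnfsf11 with Tnfrsf11b, and Tnf and Lta with Tnfrsf1b. Whether the cells of a library signal to each other was not measured.

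Many members lie next to each other in the genome. With at most 5 protein-coding genes allowed between them in the later annotation, 22 members fall into 9 runs. In 4 of these a member that was higher after culture lies in the same run as a member that was lower. These are Tnfsf9 (higher) with Tnfsf14 (lower) on chromosome 17, Tnfrsf18 (higher) with Tnfrsf4 (lower) on chromosome 4, Ltbr (higher) with Cd27 and Tnfrsf1a (lower) on chromosome 6, and Tnfrsf23 (higher) with Tnfrsf22 and Tnfrsf26 (lower) on chromosome 7. On the other hand Ltb, Tnf and Lta, side by side on chromosome 17, were all lower, as were Tnfsf18 and Fasl on chromosome 1, and Tnfrsf1b and Tnfrsf8 on chromosome 4 were both higher. Adjacent genes with reads that run on past their ends could share counts, which was not tested.

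**Figure D4:**
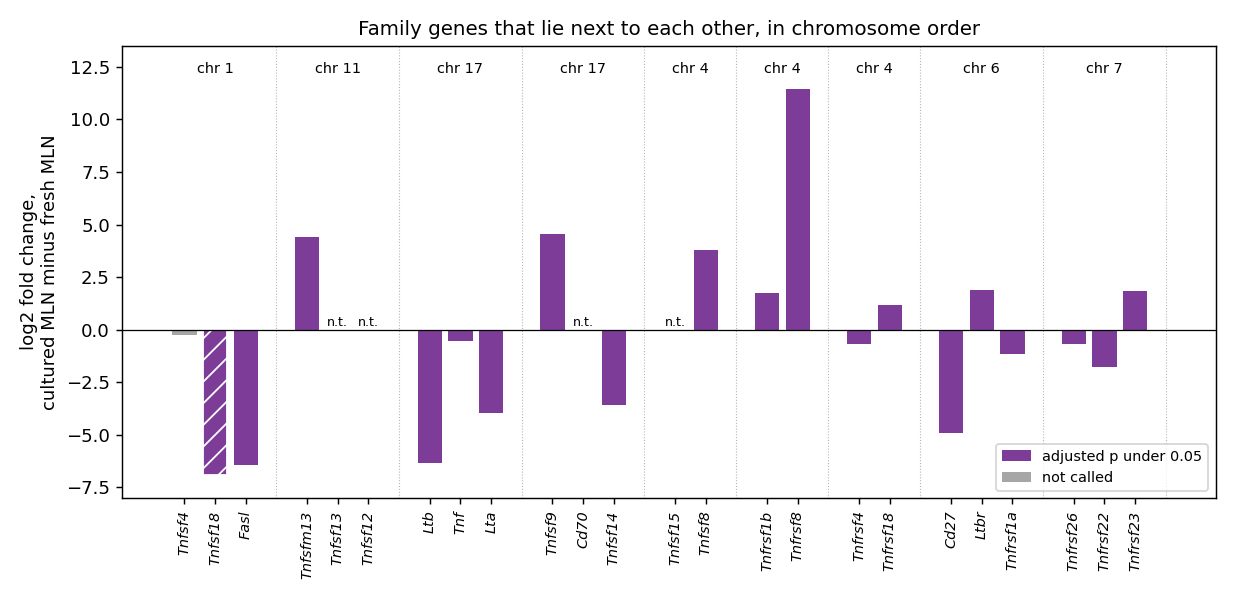
Log2 fold change of cultured MLN against fresh MLN for members that lie next to each other in the genome, grouped by run. The hatched bar of Tnfsf18 rests on 3 counts over the cultured libraries. The letters n.t. mark genes not tested, among them Cd70 and Tnfsf12, which are not counted as members. Bars on both sides of 0 occur in 4 runs, while Ltb, Tnf and Lta all lie below 0.

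Promoter sequence is shown for Tnfrsf8 and Tnfrsf9, higher after culture, and for Ltb and Cd27, lower after culture. They were chosen after their values were seen, as members above 100 CPM in a group with large changes in either direction. Each is the 250 bases before the start of transcription in RefSeq on GRCm38.p6, read 5′ to 3′ on the gene's strand, and positions are counted from 1 at the window's 5′ end. Tnfrsf8 is at chr4:145315165-145315414 on the minus strand and Tnfrsf9 at chr4:150927749-150927998 on the plus strand. Ltb is at chr17:35194257-35194506 on the plus strand and Cd27 at chr6:125237028-125237277 on the minus strand. RefSeq lists another start for Tnfrsf9, whose window holds none of the motifs. Capitals mark matches on either strand to 3 motifs: GGG, NN and TTTCC in a row for NF-kB (N is any base), TTCNNNGAA for STAT and TGANTCA for AP-1.
Tnfrsf8: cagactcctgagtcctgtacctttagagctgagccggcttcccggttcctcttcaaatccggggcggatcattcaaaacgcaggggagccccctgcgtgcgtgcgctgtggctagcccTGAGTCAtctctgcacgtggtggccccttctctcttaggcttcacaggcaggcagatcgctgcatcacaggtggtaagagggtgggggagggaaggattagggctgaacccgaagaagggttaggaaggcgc
Tnfrsf9: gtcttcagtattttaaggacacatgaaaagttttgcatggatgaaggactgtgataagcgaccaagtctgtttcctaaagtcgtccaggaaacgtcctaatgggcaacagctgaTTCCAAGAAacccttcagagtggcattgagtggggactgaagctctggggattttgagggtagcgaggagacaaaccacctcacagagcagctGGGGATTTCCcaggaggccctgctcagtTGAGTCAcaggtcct
Ltb: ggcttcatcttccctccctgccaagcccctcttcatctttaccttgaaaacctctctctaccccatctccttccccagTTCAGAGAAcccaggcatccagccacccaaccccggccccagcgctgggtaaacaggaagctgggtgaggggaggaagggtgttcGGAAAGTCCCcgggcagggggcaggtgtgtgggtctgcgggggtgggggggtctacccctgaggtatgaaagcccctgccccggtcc
Cd27: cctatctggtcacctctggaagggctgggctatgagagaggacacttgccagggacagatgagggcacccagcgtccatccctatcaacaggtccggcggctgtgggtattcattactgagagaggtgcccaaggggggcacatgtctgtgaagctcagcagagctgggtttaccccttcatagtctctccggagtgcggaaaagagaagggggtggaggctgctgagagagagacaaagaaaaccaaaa
Tnfrsf8 holds an AP-1 match at 119 to 125. Tnfrsf9 holds a STAT match at 115 to 123, an NF-kB match at 208 to 217 and an AP-1 match at 236 to 242. Ltb holds a STAT match at 79 to 87 and an NF-kB match at 164 to 173, which lies on the opposite strand, and Cd27 holds no match. Tnfrsf9, higher after culture, and Ltb, lower, thus both hold NF-kB and STAT letters.

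RefSeq windows were found for 31 of the 40 members, 35 windows in all, with several starts for some genes. The NF-kB letters were in 3 of these windows and in 1.41% of all 32851 promoter windows. STAT letters were in 8 member windows, against 7.02% of all, and AP-1 letters in 6, against 6.75%. By call after culture, NF-kB letters were held by 1 of 14 higher members, Tnfrsf9, and by 2 of 14 lower members, Ltb and Tnfrsf25. STAT letters were held by 4 of 14 in each direction, and AP-1 letters by 3 of 14 higher and 1 of 14 lower members. A match is a description of the letters and says nothing of binding.

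Signalling genes of the pathway were mostly lower in both comparisons against fresh MLN. Of 35 listed adaptors, ubiquitin enzymes, death effectors and NF-kB factors, 11 were higher after culture, 19 lower and 5 not called, or 85.7% called against 77.6% of all genes, of which 39.4% were higher and 38.1% lower. They had a median absolute log2 fold change of 0.56, against 0.87 over all genes. The median log2 fold change was -0.38, against -0.01 over all genes. Rhbdf2, a partner of the protease that sheds TNF, had 132 and 133 CPM in cultured MLN, 18.0 and 18.7 CPM in thymus, and 12.9 and 14.1 CPM in fresh MLN (3.30 ± 0.08, adjusted p = 4.6e-13). Adam17, the protease itself, was not called, at 134 and 130 CPM in cultured MLN, 134 and 136 CPM in thymus, and 125 and 127 CPM in fresh MLN. Ripk3, a kinase of necroptosis, had 217 and 242 CPM in cultured MLN, 67.3 and 75.6 CPM in thymus, and 55.1 and 59.7 CPM in fresh MLN (2.00 ± 0.08, adjusted p = 8.7e-11). Both Rhbdf2 and Ripk3 were highest in cultured MLN without overlap. Otulin, which removes linear ubiquitin, had 62.8 and 67.2 CPM in cultured MLN, 33.7 and 37.3 CPM in thymus, and 34.7 and 35.3 CPM in fresh MLN (0.89 ± 0.08). Lower after culture were the kinase Ikbkb (-1.44 ± 0.07), the NF-kB subunits Relb (-1.32 ± 0.08) and Nfkb1 (-1.23 ± 0.09), and Rbck1, a subunit of the linear ubiquitin ligase (-1.12 ± 0.06). Ikbkb had 142 CPM in each cultured MLN library, 285 and 288 CPM in thymus, and 375 and 393 CPM in fresh MLN.

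In thymus relative to fresh MLN, 5 signalling genes were higher, 22 lower and 8 not called, or 77.1% called against 47.3% of all genes (25.3% higher and 22.0% lower). They had a median log2 fold change of -0.26, against 0 over all genes. Without fresh MLN replicate 1 the number higher was 2, and without thymus replicate 2 it was 3. Traf1, an adaptor of TNFR2, CD30 and CD137, had 301 and 284 CPM in cultured MLN, 44.6 and 44.1 CPM in thymus, and 113 and 135 CPM in fresh MLN. It was lower in thymus (-1.49 ± 0.09, adjusted p = 1.5e-08) and higher in cultured MLN (1.23 ± 0.08, adjusted p = 1.2e-08) than in fresh MLN. Nfkbia, the inhibitor that NF-kB induces, had 398 and 403 CPM in cultured MLN, 139 and 156 CPM in thymus, and 314 and 394 CPM in fresh MLN, and was lower in thymus (-1.27 ± 0.10, adjusted p = 3.3e-07). Relb (-1.03 ± 0.08) and Birc3 (-1.02 ± 0.07), an inhibitor of apoptosis, were also lower in thymus. The higher genes were led by Traf4 (0.68 ± 0.10), Rhbdf2 (0.44 ± 0.08), Ripk3 (0.32 ± 0.08) and Tradd (0.27 ± 0.08), the adaptor of TNFR1. Differences upward were thus smaller than the largest downward ones.

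**Figure D5:**
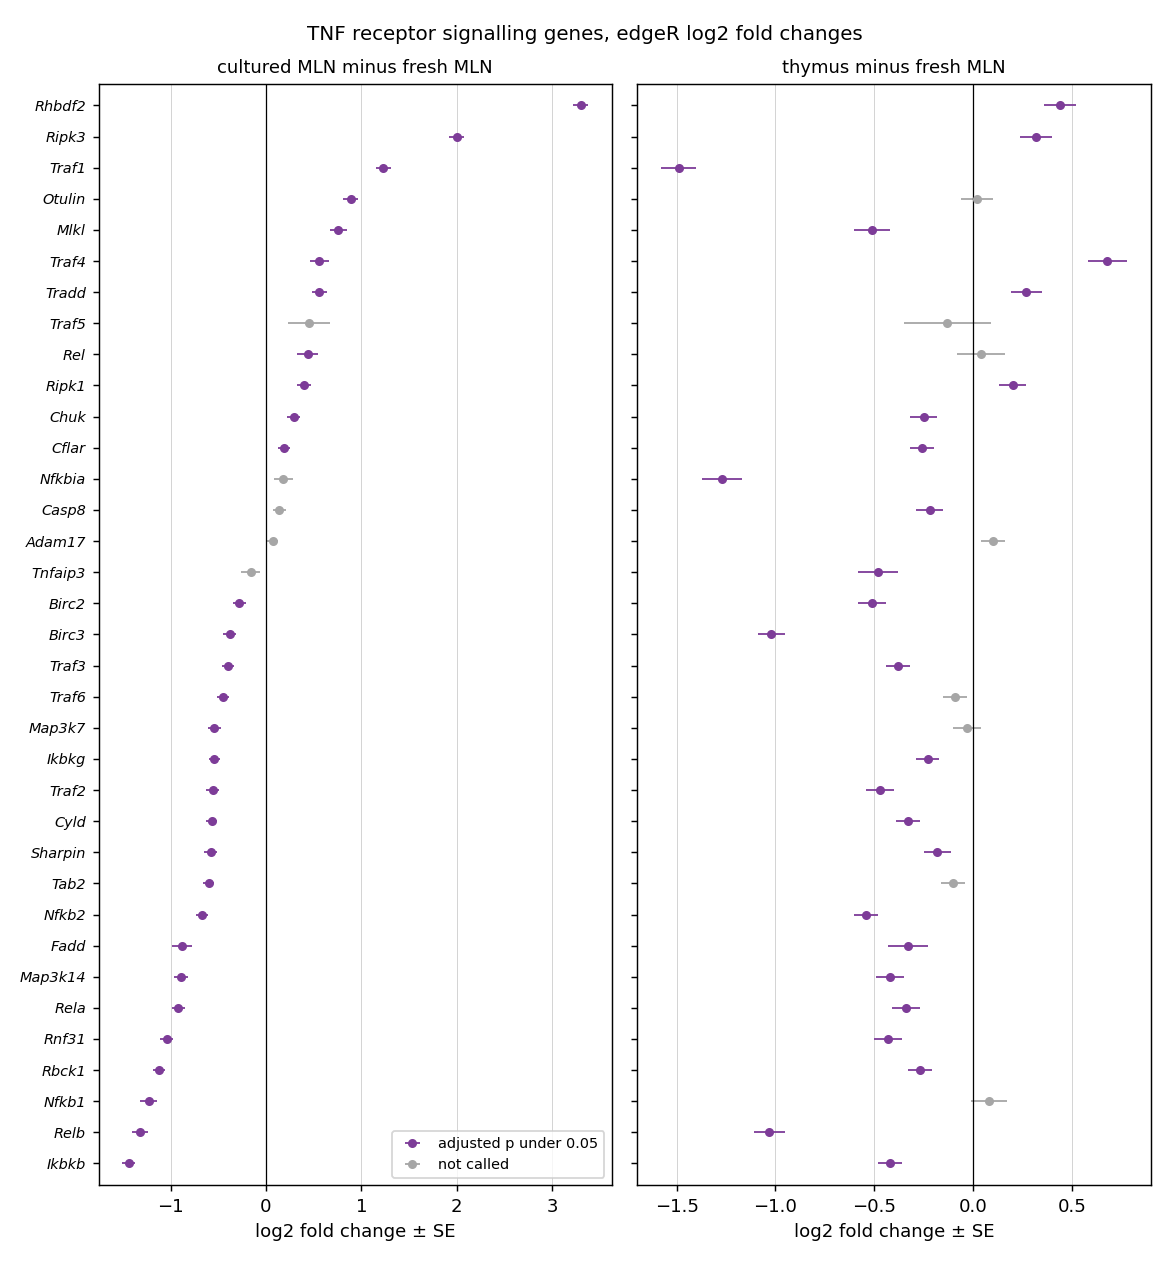
Log2 fold changes of the 35 signalling genes with their standard errors, for cultured MLN against fresh MLN and thymus against fresh MLN. Rhbdf2 and Ripk3 are the highest after culture, at 3.30 and 2.00, and Traf1 is above 0 after culture and below 0 in thymus.

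Family genes whose symbols the rule does not take were looked up as well. Relt, a receptor of the family, had 19.5 and 19.3 CPM in cultured MLN, 29.0 and 30.1 CPM in thymus, and 17.4 and 18.8 CPM in fresh MLN, higher in thymus than in fresh MLN (0.71 ± 0.09, adjusted p = 1.9e-05) and not called after culture (adjusted p = 0.31). Eda2r, a receptor of ectodysplasin, had 50 and 28 counts in cultured MLN, 1 and 2 in thymus, and 1 and 0 in fresh MLN. Its counts in cultured MLN were 86.0 times those in fresh MLN, with a 95% counting interval of 15.0 to 3440. Like Tnfrsf11b, Eda2r passed the filter through cultured MLN alone, so that its call was bound to follow. Eda, Edar and Ngfr had 5, 1 and 0 counts over the cultured MLN libraries, 16, 0 and 2 over thymus, and 5, 0 and 1 over fresh MLN, and were not tested.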

How the data were processed

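The deposited values are the authors' raw read count per Ensembl gene in each library, not normalized. Per the submitters' processing notes, HTSeq 0.5.3p9 was used with mm9 and NCBIM37; what aligner, annotation release and strand setting were used is not given in the sources used here. All 37991 identifiers name genes, of which 32938 matched a symbol of GENCODE M21. That annotation also gave exon lengths and gene order, and RefSeq gave promoters.

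Counts were filtered with the default of filterByExpr, scaled by TMM and fitted over 6 libraries with 1 mean per group and no block (R 4.3.3, edgeR 4.0.16, 3 residual and 9.54 prior degrees of freedom, common biological coefficient of variation 0.066). SE is the absolute log2 fold change over the square root of F, and can be too small at low counts. Counting intervals and floors of 3 counts take in counting error alone, because without molecular identifiers reads are not independent molecules. With 2 libraries a group, a permutation test of 1 value could not reach 0.05 and was not used. The test was checked on simulated data.

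Every library's values are given for members called in any comparison with an absolute log2 fold change of at least 1 there and at least 5 CPM in the highest group, and for other members as space allowed. From the signalling list, up to 4 called genes per direction with at least 5 CPM were named. Adam17 was named after its values were seen. Members, lists, tests and rules were chosen with earlier results of these data known.

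Alternatives were RLE and upper-quartile factors, library totals alone, other filters, protein-coding genes only, a fit to the 2 groups compared, DESeq2 1.42.0, a replicate block, leaving out each library and a test against a 2-fold change. Values of some single marker genes are not reported here.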

Additional observations from a re-analysis of the deposited data

How the results depend on the processing

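Of the called members that every alternative tested, 30 of 31 (cultured MLN against fresh MLN), 30 of 30 (cultured MLN against thymus) and 17 of 20 (thymus against fresh MLN) kept their call in the 15 alternatives other than the test against a 2-fold change. With that test (glmTreat in edgeR) included, 25, 23 and 5 kept it, and no called member reversed. The filter of at least 5 CPM in 2 libraries left Cd40, Tnfrsf11b, Tnfrsf13c and Tnfsf4 untested. That test left 4 members higher and 1 lower in thymus (ligand side 2 and 1, receptors 2 and 0, where 0 receptors also had an unadjusted p under 0.05), 0 signalling genes higher and 2 lower there (0 higher at an unadjusted p under 0.05), 3 higher and 4 lower after culture, and 5 receptors lower in cultured MLN than in thymus. It asks for a larger change by construction.

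With library totals alone the median log2 fold change of all genes moved to -0.23 after culture, and to -0.32 in cultured MLN against thymus, where 4254 genes were higher and 7881 lower (5654 and 6139 with TMM). With this setting the log2 fold changes of Cflar (-0.03) and Adam17 (-0.15, adjusted p = 0.035) after culture turned negative. Both stayed above the median of all genes (-0.23). No called member changed sign. Leaving out 1 library gave 2 to 5 signalling genes higher in thymus.

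Whether replicate numbers mark a shared animal or day is not stated. Deviations of same-numbered libraries correlated at 0.11 (thymus and fresh MLN), 0.03 (cultured and fresh MLN) and 0.02 (cultured MLN and thymus). With 2 libraries a group, such low values cannot show that the samples are unpaired. With the replicate block, 12 members were higher and 11 lower in thymus, 17 and 16 after culture, and 16 and 17 against thymus.

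Depth limits the members with few counts, above all the 5 untested ligand genes, Tnfsf18 and Fasl in cultured MLN, and Tnfrsf11b in thymus and fresh MLN. With 2 libraries a group the spread is estimated over all 3 groups.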
